A study of Homo sapiens with 12 samples.

Results

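The collagen chain genes are the genes whose symbols in the deposited count table read COL, a type number, A and a chain number. The rule found 44 such genes among the 28278 in the table. They were followed across 12 RNA-seq libraries of K562 cells, an established human erythroleukemia line, with 3 libraries in each of 4 groups. The WT untreated and HRG1-KO untreated groups received no butyrate. The WT butyrate and HRG1-KO butyrate groups received 0.75 mM sodium butyrate 24 h after plating and again 48 h later, and were collected 6 h after that second dose. Sodium butyrate is a short-chain fatty acid salt that inhibits histone deacetylases and drives K562 cells toward erythroid features. HRG1, whose gene is SLC48A1, carries heme across membranes. The series text places all groups at day 8 of differentiation, and all were grown in RPMI with heat-inactivated serum. The sources used here do not give how the knockout was made, or the number of clones, so genotype and clone cannot be told apart. They also do not say that libraries of a group came from separate cultures, so p-values measure the spread between these libraries, which may be technical. In bulk RNA, fewer cells that transcribe a gene and less RNA per cell cannot be told apart.

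Collagens are extracellular matrix proteins in which 3 alpha chains, encoded by separate genes or by copies of the same gene, wind into a triple helix. Fibrillar collagens form the fibres of bone, skin and cartilage, network-forming type IV collagens build basement membranes, type VI forms beaded filaments, and the FACIT types sit on fibre surfaces. Enzymes of the endoplasmic reticulum hydroxylate the chains and assist their folding, and secreted enzymes trim and crosslink them. Blood cells are not major producers of fibrillar collagen, and the chains are best known as products of fibroblasts, chondrocytes, osteoblasts and endothelium.

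Several of these genes lie in head-to-head pairs, and the stretches between the starts are shown for COL4A1 with COL4A2 and COL4A4 with COL4A3. Stretches before the start are shown for COL4A5, COL25A1, COL9A2 and COL6A3, a part of the chains that differed between genotypes. In RefSeq (GRCh38.p14) COL4A1 and COL4A2 start 126 bases apart on opposite strands at chr13:110307158-110307283, and COL4A4 and COL4A3 start 135 bases apart at chr2:227164489-227164623. COL4A6 and COL4A5 start 379 bases apart on the X chromosome, and the 250 bases before COL4A5 lie at chrX:108439588-108439837 on the plus strand. The 250 bases before COL25A1 (chr4:109302659-109302908), COL9A2 (chr1:40317287-40317536) and COL6A3 (chr2:237414165-237414414) are on the minus strand. Capitals mark, on either strand, the letters GGGCGG known as a GC box, the letters CCAAT known as a CCAAT box, and the letters TATAAA known as a TATA box. Matches to the GC box may overlap one another.
COL4A1/COL4A2: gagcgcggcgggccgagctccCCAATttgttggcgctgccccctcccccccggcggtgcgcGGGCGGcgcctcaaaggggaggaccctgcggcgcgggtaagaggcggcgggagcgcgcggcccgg
COL4A4/COL4A3: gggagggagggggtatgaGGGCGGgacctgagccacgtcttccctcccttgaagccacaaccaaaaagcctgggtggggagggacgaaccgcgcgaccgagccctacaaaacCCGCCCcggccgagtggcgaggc
COL4A5: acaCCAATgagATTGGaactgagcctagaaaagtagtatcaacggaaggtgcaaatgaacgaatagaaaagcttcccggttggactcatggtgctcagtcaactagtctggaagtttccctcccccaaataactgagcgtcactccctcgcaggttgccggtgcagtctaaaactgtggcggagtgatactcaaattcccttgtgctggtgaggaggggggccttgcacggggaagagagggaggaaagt
COL25A1: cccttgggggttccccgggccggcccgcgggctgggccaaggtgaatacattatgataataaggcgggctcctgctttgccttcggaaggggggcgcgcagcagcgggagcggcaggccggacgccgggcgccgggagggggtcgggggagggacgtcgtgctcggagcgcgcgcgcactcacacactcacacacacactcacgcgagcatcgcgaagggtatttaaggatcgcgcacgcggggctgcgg
COL9A2: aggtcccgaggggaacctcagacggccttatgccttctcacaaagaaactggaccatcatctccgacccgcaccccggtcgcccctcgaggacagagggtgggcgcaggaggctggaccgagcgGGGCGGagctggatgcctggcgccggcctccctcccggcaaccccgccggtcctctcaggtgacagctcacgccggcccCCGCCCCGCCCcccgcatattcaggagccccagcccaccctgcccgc
COL6A3: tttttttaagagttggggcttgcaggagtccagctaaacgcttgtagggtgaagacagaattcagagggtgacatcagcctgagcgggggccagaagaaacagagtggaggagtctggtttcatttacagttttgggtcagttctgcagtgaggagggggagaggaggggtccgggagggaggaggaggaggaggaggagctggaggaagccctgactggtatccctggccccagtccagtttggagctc
COL4A1 and COL4A2 share 1 GGGCGG and 1 CCAAT match, COL4A4 and COL4A3 share 2 GGGCGG matches, COL4A5 holds 2 CCAAT matches and COL9A2 holds 3 GGGCGG matches. COL25A1 and COL6A3 hold no match to these letters. Among 35116 RefSeq promoter windows cut to 250 bases, 42.6% hold GGGCGG, 32.0% CCAAT and 10.7% TATAAA. At 126 bases the shares are 34.6%, 21.1% and 5.87%, and at 135 bases 35.5%, 22.1% and 6.13%. The 250-base windows of COL25A1, COL9A2, COL4A5 and COL6A3 hold 32, 22, 8 and 3 CG dinucleotides, beside a median of 11 over all windows of that length. A match is a description of the letters and not evidence of binding.

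Library totals ran from 19963594 to 30348538 counts, so that 3 counts equalled 0.0953 to 0.162 CPM, counts scaled to library size. SLC48A1 fell in the KO, from 1357, 1772 and 1945 counts in WT untreated to 55, 175 and 196 in KO untreated, and from 1617, 1380 and 1914 in WT butyrate to 131, 242 and 313 in KO butyrate. Of the genes that mark this erythroleukemia line, the transcription factor genes GATA1, KLF1 and TAL1 were detected in every group. The first principal component (53.1% of the variance) separated genotypes. On the second (20.9%), the untreated libraries spanned 15.3 to 75.6. Replicate 1 of WT butyrate fell inside that span (40.9) and replicate 1 of KO butyrate just outside it (4.21), whereas replicates 2 and 3 of both lay between -84.8 and -74.3. The counts of chains called with butyrate are therefore also given without the libraries numbered 1.

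A chain was called detected in a group when each of its 3 libraries held 3 or more counts. By this rule 18 of 44 chains were detected in WT untreated, 22 in WT butyrate, 17 in KO untreated and 23 in KO butyrate. Detected in all 4 groups were 10 chains, namely COL1A1, COL4A2, COL4A5, COL7A1, COL9A2, COL9A3, COL11A2, COL15A1, COL18A1 and COL23A1. COL2A1 and COL4A3 were detected in both KO groups and in neither WT group, and COL1A2 and COL14A1 in both WT groups and in neither KO group. Detected in no group were 17 chains, of which COL4A1 and COL13A1 had 0 counts in every library. The other 15 were COL3A1, COL5A1, COL5A3, COL8A1, COL9A1, COL11A1, COL12A1, COL17A1, COL19A1, COL20A1, COL21A1, COL22A1, COL24A1, COL27A1 and COL28A1. COL8A2, detected in KO butyrate, and COL16A1, detected in WT butyrate, were too low to be tested. A chain below detection here was not detectable at this depth and is not shown to be absent.

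**Figure D1:**
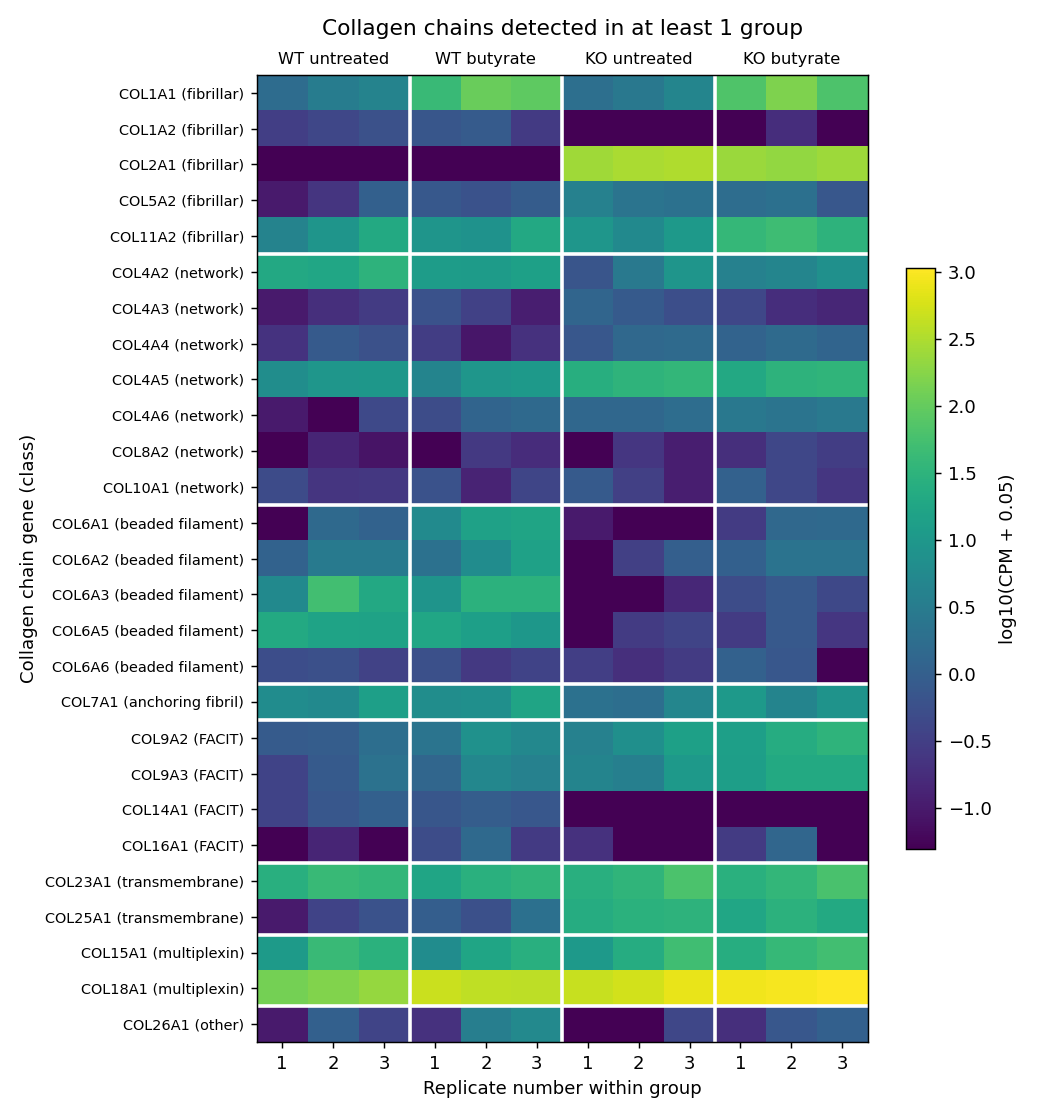
Heat map of the 27 chains detected in at least 1 group; rows are chains, columns are the 12 libraries by group and replicate number, and colour is log10 of CPM plus 0.05. Brighter cells are higher: COL2A1 is bright in all 6 KO libraries and at the darkest colour in all 6 WT libraries, and COL6A3 and COL6A5 are brighter in every WT library than in any KO library.

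Per kilobase of the longest protein-coding transcript, COL18A1, the chain whose C-terminal fragment is endostatin, had the highest level in every group. Its mean was 26.2 CPM per kb in WT untreated, 65.7 in WT butyrate, 90.0 in KO untreated and 145.0 in KO butyrate. The next levels were those of COL23A1 (11.4) in WT untreated, COL1A1 (12) in WT butyrate, and COL2A1 (58.7 and 46.5) in KO untreated and KO butyrate, and in each group the libraries of COL18A1 and of the next chain did not overlap. In WT butyrate the COL1A1 and COL23A1 (8.74) libraries overlapped, as did COL1A1 (14.4) and COL23A1 (13.6) in KO butyrate. From COL15A1 downward most neighbours in the order overlapped, so their order is not resolved.

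The comparison of HRG1-KO with WT asks which chains depend on genotype, first without and then with butyrate. COL2A1 is left out of the counts in this paragraph and described below without a test. In untreated cells 7 chains were higher in the KO (COL4A5, COL4A6, COL5A2, COL9A2, COL9A3, COL18A1 and COL25A1) and 6 were lower (COL1A2, COL4A2, COL6A1, COL6A3, COL6A5 and COL14A1). These 13 came from 24 chains that passed the filter on low counts, and 22.6% of all 15805 tested genes passed the same threshold (11.7% higher and 10.9% lower). Under butyrate 7 chains were higher (COL4A4, COL4A5, COL9A2, COL9A3, COL11A2, COL18A1 and COL25A1) and 4 lower (COL6A1, COL6A3, COL6A5 and COL14A1), beside 19.0% of all tested genes (10.1% higher and 8.89% lower). The 2 comparisons share no library, and 9 chains passed in both, with the same direction in each. Both comparisons came from 1 fit, and same-numbered libraries deviated together across treatments, so they are not independent. The share of all tested genes that passed in both was not computed, so the 9 are a list and not a result about the chains. Of the chains called in either comparison, COL1A2, COL6A1, COL6A3, COL6A5 and COL14A1 reached the cutoff of the filter in fewer than 3 KO libraries, and COL4A4 and COL4A6 in fewer than 3 WT libraries. Such a chain was tested because of the genotype in which it was high, so the counts are a description and not support for a change of the group. The same holds for each adjusted p by genotype that is printed below for such a chain. The test was edgeR's quasi-likelihood test with Benjamini-Hochberg adjustment over all tested genes, called at an adjusted p under 0.05, and every adjusted p below is from it. Median log2 fold changes of the 24 chains were 0.02 without and 0.65 with butyrate, beside 0.02 and 0.00 over all tested genes. Between genotypes 8 chains lay wholly higher and 8 wholly lower in untreated cells, without overlap of libraries, where 22.2% and 20.2% of all tested genes did so. Under butyrate these were 8 and 6 chains, beside 17.9% and 16.0%. With the replicate number as a block, 7 chains were higher and 8 lower in untreated cells, beside 33.0% of all tested genes, and 9 higher and 7 lower in treated cells, beside 29.2%.

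**Figure D2:**
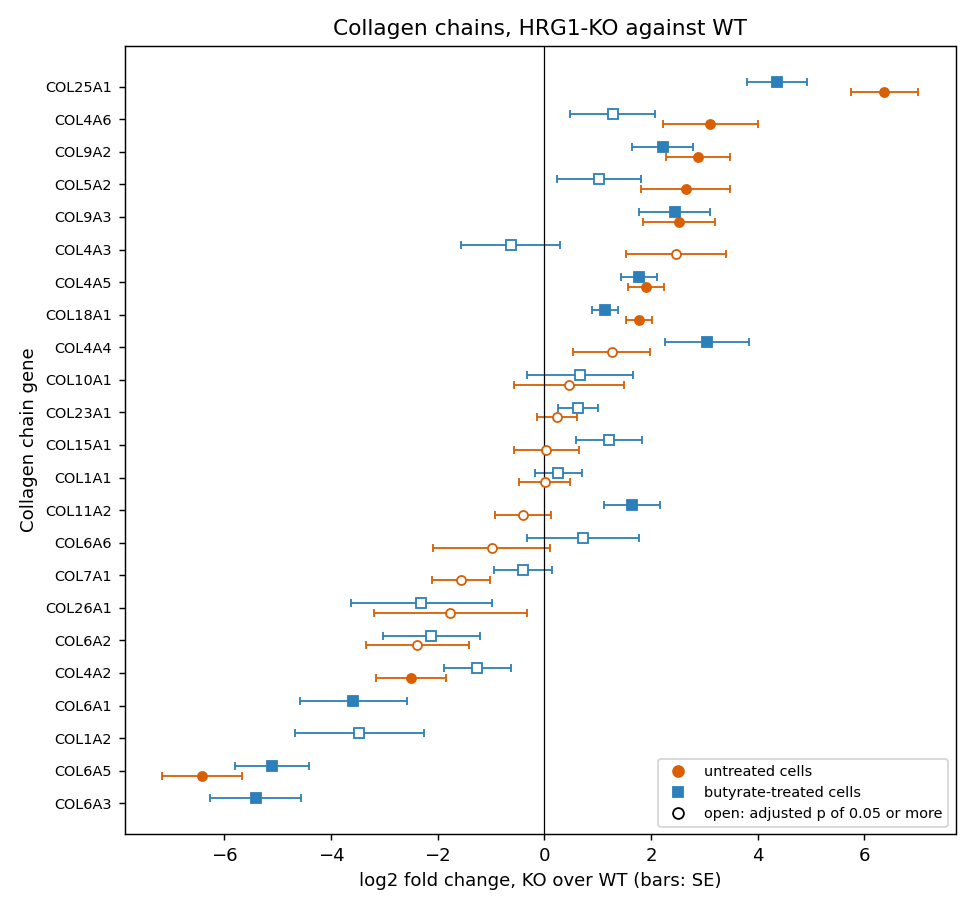
Log2 fold change of KO over WT for each tested chain in untreated and in butyrate-treated cells, with standard errors; filled points have an adjusted p under 0.05, and pairs in which a group held 3 or fewer counts in all are left out. COL25A1 lies highest and COL6A3 or COL6A5 lowest among the points drawn.

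Among the fibrillar chains, COL2A1, the single chain of cartilage type II collagen (chr12:47972967-48006212), was read only in the KO. It had 0 counts in all 6 WT libraries. KO untreated libraries held 4871, 6368 and 9886 counts (298 ± 35.2 CPM, SD, n = 3) and KO butyrate libraries 5287, 6429 and 7838 (236 ± 21.0 CPM, SD, n = 3). Against a floor of 3 counts over the 3 WT libraries, COL2A1 was at least 7060-fold higher in KO untreated and at least 5820-fold higher in KO butyrate. The presence of COL2A1 in KO cells alone was known when this gene group was chosen, so these values are a description and no p-value is given. Intervals and floors here and below cover counting error only.

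COL5A2, which joins COL5A1 in type V collagen and regulates fibre width, had 1, 4 and 30 counts in WT untreated and 74, 47 and 61 in KO untreated. The groups did not overlap, and the log2 fold change was 2.65 (SE 0.83, adjusted p = 0.0359). The call was lost when any library other than WT untreated replicate 3 was left out, with an adjusted p of up to 0.121. With any 1 library left out the log2 fold change ran from 2.17 to 4.40. It was 1.77 without the libraries numbered 1 (adjusted p = 0.14). Under butyrate COL5A2 had 14, 13 and 27 counts in WT and 38, 59 and 22 in KO, which overlapped, and the difference was 1.03 (adjusted p = 0.417). COL1A2, the second chain of type I collagen, had 5, 8 and 16 counts in WT untreated and 0 in each KO untreated library, so that it was at least 9.65-fold higher in WT. In KO butyrate COL1A2 had 0, 4 and 0 counts beside 13, 19 and 7 in WT butyrate, and no KO library reached a WT library under either treatment. COL1A2 entered the test only through WT libraries, so no p-value is given for its difference by genotype. COL1A2 lies on chromosome 7, whose 730 tested genes had a median log2 difference of -0.78 in untreated and -0.86 in treated cells, and the part of this in the result was not tested. Its partner COL1A1 differed little by genotype, with log2 fold changes of 0.01 (SE 0.48) and 0.26 (SE 0.44).

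COL11A2, a minor chain of cartilage fibres, differed by genotype under butyrate. Libraries of WT butyrate held 8.86, 8.06 and 20.8 CPM and those of KO butyrate 38.7, 48.5 and 30.9. Each KO library was above each WT library, and the log2 fold change was 1.64 (SE 0.53, adjusted p = 0.0471). Each omission of 1 library other than WT butyrate replicate 3 ended the call (adjusted p up to 0.159), as did leaving out the libraries numbered 1 (0.069). In untreated cells COL11A2 had overlapping libraries and a log2 fold change of -0.40 (SE 0.52, adjusted p = 0.638).

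In the type IV family, whose chains build the basement membrane network, COL4A5 and COL4A6 were higher and COL4A2 was lower in untreated KO cells. COL4A5, a chain of the kidney-type network, was at 6.55, 9.32 and 9.75 CPM in WT untreated and 26.3, 33.2 and 37.1 in KO untreated. In WT butyrate it was at 4.40, 9.51 and 10.8 CPM and in KO butyrate at 20.5, 30.9 and 33.4. Each KO library exceeded each WT library under the same treatment, with log2 fold changes of 1.91 (SE 0.34, adjusted p = 0.00153) and 1.77 (SE 0.34, adjusted p = 0.00302). COL4A6, its head-to-head neighbour, had 1, 0 and 12 counts in WT untreated and 25, 28 and 51 in KO untreated (log2 fold change 3.11, SE 0.89, adjusted p = 0.0244). With any 1 library left out this fold change ran from 2.58 to 5.57. The call was lost without WT untreated replicate 1 (0.0781) or 2 (0.0518), KO untreated replicate 2 (0.0551) or 3 (0.0609), or all libraries numbered 1 (0.0508). COL4A6 entered the test only through KO libraries, so its adjusted p by genotype are a description. Under butyrate COL4A6 had 9, 28 and 46 counts in WT and 57, 68 and 86 in KO, and the difference of 1.28 did not pass (adjusted p = 0.305).

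COL4A2, which pairs with COL4A1 in the most widespread type IV network, was at 20.5, 18.3 and 31.7 CPM in WT untreated and 0.642, 2.80 and 8.86 in KO untreated. All KO libraries lay below all WT libraries, and the log2 fold change was -2.50 (SE 0.65, adjusted p = 0.0152). Omitting WT untreated replicate 3 (adjusted p = 0.0562) or KO untreated replicate 2 (0.0693) ended the call. Under butyrate COL4A2 had 12.2, 11.8 and 14.5 CPM in WT and 3.90, 4.66 and 7.51 in KO, which passed only with the block (adjusted p = 0.0461, and 0.194 without it). The 267 tested genes of chromosome 13 had a median log2 difference of 0.94 in untreated cells. RAB20, the nearest tested gene at 9.86 kb, was lower in untreated KO cells as COL4A2 was (-2.47, adjusted p = 0.000155) and at -0.25 in treated cells (adjusted p = 0.62). The next tested genes on that side, NAXD and CARS2, were higher in untreated KO cells (0.99 and 0.81, adjusted p = 0.0019 and 0.0144). RAB20 was named after its values were seen, and the part of these neighbours in the COL4A2 result was not tested. COL4A1, read from the other side of the same 126 bases, had 0 counts in all 12 libraries, where COL4A2 had 12 to 944. The antisense genes COL4A2-AS1 and COL4A2-AS2 had at most 2 and 0 counts.

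The COL4A3 and COL4A4 pair encodes the partners of COL4A5 in the kidney and lung network. COL4A4 had 5, 1 and 5 counts in WT butyrate and 25, 46 and 37 in KO butyrate, without overlap, a log2 fold change of 3.05 (SE 0.79, adjusted p = 0.0175). The call was lost without WT butyrate replicate 2 (adjusted p = 0.0729) or 3 (0.0617) or KO butyrate replicate 2 (0.0563). COL4A4 entered the test only through KO libraries, so its adjusted p by genotype are a description. In untreated cells COL4A4 had 3, 17 and 16 counts in WT and 13, 29 and 46 in KO (1.26, adjusted p = 0.24). COL4A3 had 1, 3 and 7 counts in WT untreated and 23, 17 and 15 in KO untreated, which did not overlap but did not pass (2.47, SE 0.94, adjusted p = 0.0796). COL10A1, a short-chain network collagen of hypertrophic cartilage, had 2 to 23 counts in all libraries and passed in no comparison, and it overlaps NT5DC1 (297 to 935 counts) on the opposite strand.

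**Figure D3:**
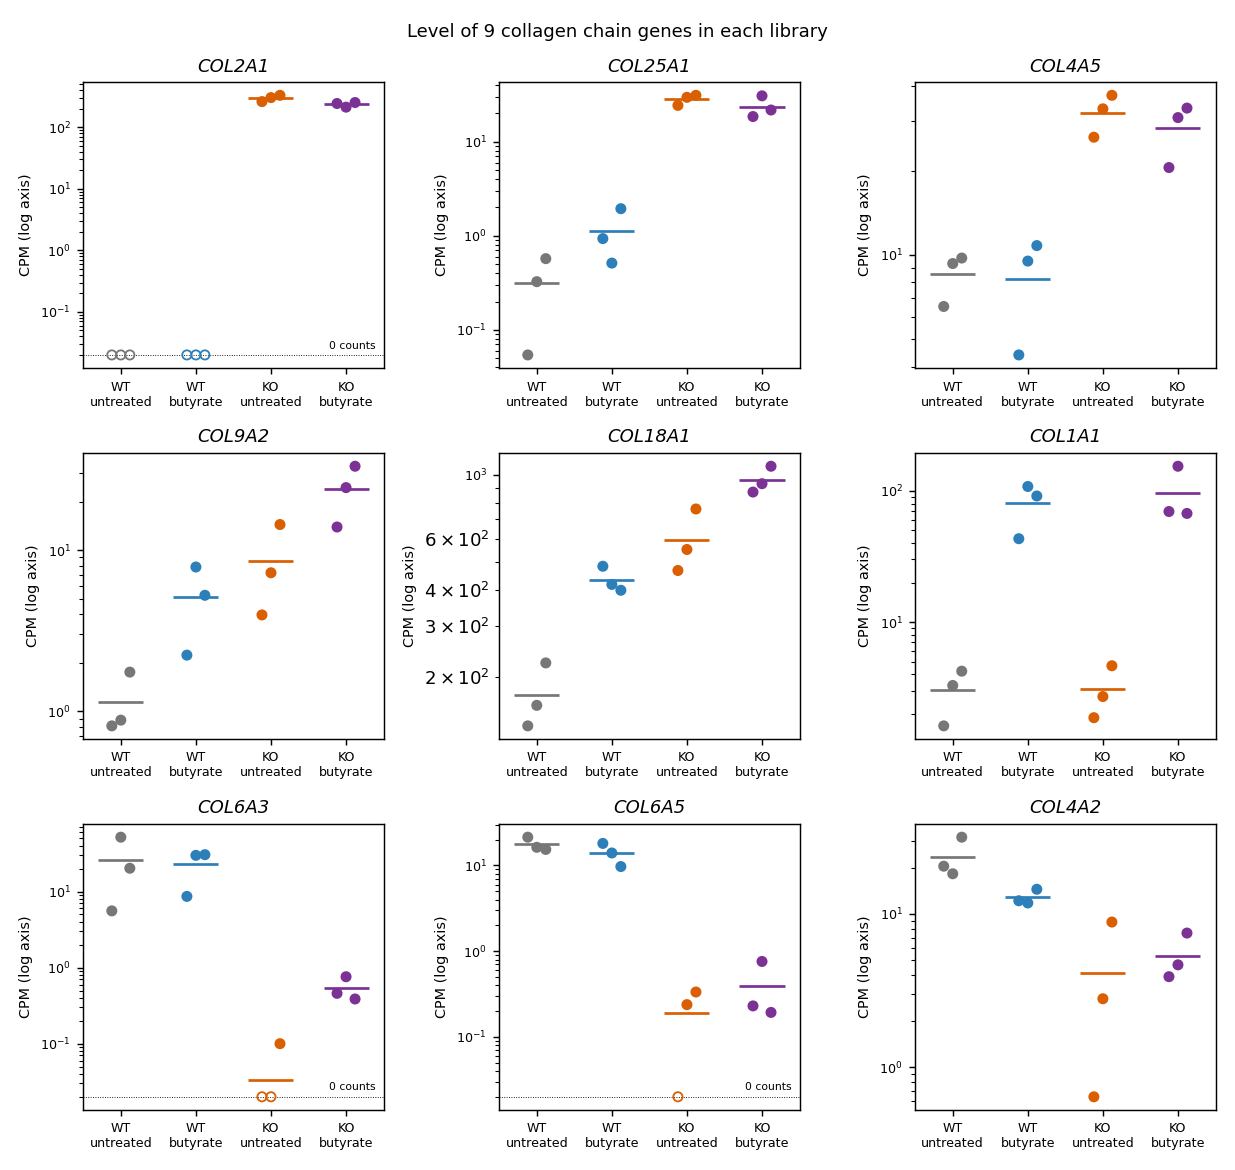
CPM of 9 chains in every library on a log axis, with a bar at each group mean; open circles on the dotted line are libraries with 0 counts. COL2A1 has all WT libraries at 0, within each treatment COL25A1, COL4A5 and COL9A2 have higher KO points and COL6A3 and COL6A5 lower ones, and COL1A1 separates by butyrate.

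Of the 5 type VI chains, all of them tested, COL6A1, COL6A3 and COL6A5 were lower in the KO in both comparisons and none was called higher. Type VI filaments are assembled from COL6A1, COL6A2 and a further chain such as COL6A3, COL6A5 or COL6A6. COL6A3 had 5.58, 52.0 and 20.3 CPM in WT untreated, and its KO untreated libraries held 0, 0 and 3 counts in place of the 103, 1121 and 603 of WT. The ratio of WT to KO was 608 (95% counting interval 208 to 2950, adjusted p = 0.000106). Under butyrate COL6A3 was at 8.65, 30.0 and 30.6 CPM in WT and 0.459, 0.759 and 0.387 in KO, a log2 fold change of -5.41 (SE 0.85, adjusted p = 0.000886). COL6A5 was at 21.4, 16.3 and 15.4 CPM in WT untreated and 0, 0.238 and 0.334 in KO untreated (log2 fold change -6.41, SE 0.75, adjusted p = 7.59e-05). In treated cells COL6A5 was at 18.1, 14 and 9.72 CPM in WT and 0.230, 0.759 and 0.193 in KO (-5.11, SE 0.69, adjusted p = 0.000286). For both chains no KO library reached any WT library. COL6A1, COL6A3 and COL6A5 entered the test only through WT libraries. Their adjusted p by genotype are therefore a description and not support for a difference.

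COL6A1 had 0, 32 and 33 counts in WT untreated and 1, 0 and 0 in KO untreated, so that WT replicate 1 overlapped the KO libraries. The ratio of WT to KO was 64.9 (95% counting interval 11.2 to 2600, adjusted p = 0.0197), and it was lost without WT untreated replicate 2 (0.058) or KO untreated replicate 2 (0.0734) or 3 (0.074). In treated cells COL6A1 was at 5.86, 14.8 and 16.9 CPM in WT and 0.230, 1.42 and 1.45 in KO (log2 fold change -3.58, SE 1.00, adjusted p = 0.0249), a call lost on leaving out any library but WT butyrate replicate 1 (up to 0.0702). COL6A2, 93.1 kb from COL6A1 on chromosome 21, had 20, 63 and 86 counts in WT untreated and 0, 6 and 29 in KO untreated. Its log2 fold changes of -2.38 and -2.12 (adjusted p = 0.097 and 0.131) passed with the block (0.00584 and 0.0332). They also passed without the libraries numbered 1 (0.0234 and 0.0141). COL6A6, 31.9 kb from COL6A5 on chromosome 3, had 3 to 11 counts in untreated libraries and did not pass (-0.99 and 0.72). The median log2 difference of tested genes was 0.45 on chromosome 3 in both comparisons, and -0.33 and -0.36 on chromosome 21, which also carries COL18A1.

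Of the FACIT chains, which decorate fibre surfaces, COL9A2 and COL9A3 of type IX were higher in the KO and COL14A1 was read only in WT. COL9A2, a cartilage chain, was at 0.812, 0.881 and 1.75 CPM in WT untreated and 3.96, 7.23 and 14.4 in KO untreated. In treated cells it was at 2.23, 7.85 and 5.24 CPM in WT and 13.9, 24.4 and 33.1 in KO. The KO libraries were higher than all WT libraries in both comparisons, with log2 fold changes of 2.88 (SE 0.60, adjusted p = 0.0041) and 2.22 (SE 0.57, adjusted p = 0.016). COL9A3 was at 0.325, 0.788 and 2.12 CPM in WT untreated, 4.49, 3.71 and 10.7 in KO untreated, 1.30, 4.99 and 4.0 in WT butyrate and 13.5, 21.3 and 21.5 in KO butyrate. Here too the genotypes did not overlap, with log2 fold changes of 2.52 (SE 0.67, adjusted p = 0.0173) and 2.44 (SE 0.66, adjusted p = 0.0203). COL9A3 overlaps TCFL5 (486 to 1357 counts) on the opposite strand, and since strand use in the counting is not given, shared reads cannot be told apart. In treated cells the COL9A2 call was lost without WT butyrate replicate 3 (0.0523) or KO butyrate replicate 3 (0.0618), and the COL9A3 call without these (0.0541 and 0.0547) or KO butyrate replicate 2 (0.0618). In untreated cells the COL9A3 call was lost without WT untreated replicate 1 (0.0547) or 2 (0.0686) or KO untreated replicate 3 (0.0816).

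COL9A1, the remaining chain of type IX, had 1, 1 and 11 counts in WT untreated and 2, 7 and 1 in WT butyrate, and 0 in all 6 KO libraries. COL9A1 was below detection in every group and was not tested, and 1 library held 11 of its 13 counts in WT untreated. COL14A1, which binds the surface of type I fibres, had 6, 15 and 30 counts in WT untreated and 13, 21 and 22 in WT butyrate, and 0 in all 6 KO libraries. COL14A1 was therefore at least 17.0-fold higher in WT without and at least 20.9-fold higher with butyrate. It entered the test only through WT libraries, so no p-value is given for this difference.

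COL25A1, a membrane-spanning chain also known as the collagenous Alzheimer amyloid plaque component, was at 0.0541, 0.325 and 0.571 CPM in WT untreated and 24.3, 29.6 and 31.1 in KO untreated. In treated cells COL25A1 was at 0.933, 0.512 and 1.94 CPM in WT and 18.5, 30.7 and 21.7 in KO. The lowest KO library was above the highest WT library in each, and log2 fold changes were 6.37 (SE 0.63, adjusted p = 2.05e-05) and 4.36 (SE 0.56, adjusted p = 0.000185). COL23A1, the other detected membrane chain, was at 17.6 to 63.6 CPM in all libraries, with log2 fold changes of 0.24 and 0.63. The latter passed only with the block (adjusted p = 0.0436, and 0.284 without it).

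The multiplexin COL18A1, a basement membrane proteoglycan chain, was at 135, 159 and 223 CPM in WT untreated and 466, 551 and 761 in KO untreated. In treated cells COL18A1 was at 482, 417 and 398 CPM in WT and 871, 931 and 1070 in KO. The KO libraries lay above the WT libraries in both, with log2 fold changes of 1.78 (SE 0.24, adjusted p = 0.000221) and 1.14 (SE 0.24, adjusted p = 0.00506) that held without any 1 library. COL18A1 overlaps SLC19A1 (589 to 1665 counts) and COL18A1-AS1 (9 to 95 counts) on the opposite strand. COL15A1, the other multiplexin, had log2 fold changes of 0.04 (SE 0.61) without and 1.21 (SE 0.62, adjusted p = 0.207) with butyrate, the latter passing with the block (0.00432). COL7A1, the anchoring fibril chain of skin, was at 6.33, 5.66 and 13.7 CPM in WT untreated and 2.03, 1.76 and 4.88 in KO untreated. The groups did not overlap, and the difference of -1.56 (SE 0.55, adjusted p = 0.062) passed with the block (0.00501). COL26A1, also on chromosome 7, had 1 to 22 counts in WT untreated and 0, 0 and 11 in KO untreated and did not pass (-1.76, adjusted p = 0.429).

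The comparison of butyrate with untreated cells within each genotype asks which chains respond to the compound. COL1A1, the main chain of type I collagen of bone and skin (chr17:50184101-50201631), rose in both genotypes. In WT it went from 1.62, 3.29 and 4.23 CPM to 43.2, 108 and 91.4, a 26.2-fold increase (log2 fold change 4.71, SE 0.53, adjusted p = 0.00273). In KO it went from 1.87, 2.71 and 4.65 CPM to 69.6, 154 and 67.3, a 31.1-fold increase (4.96, SE 0.53, adjusted p = 0.00211). Every treated library was above every untreated library of the same genotype, and both calls held when any 1 library was left out. COL1A2, which supplies the other chain of type I collagen, had 5, 8 and 16 counts without and 13, 19 and 7 with butyrate in WT (log2 fold change 0.50, SE 1.03, adjusted p = 0.851).

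In WT cells COL1A1 and COL18A1 rose and no chain fell, 2 of 25 tested chains beside 2.35% of all tested genes (1.8% higher and 0.55% lower). In KO cells COL1A1 and COL11A2 rose and no chain fell, again 2 of 25, beside 3.4% (2.8% higher and 0.595% lower). With the replicate number as a block these became 5 chains in WT (8.61% of all tested genes) and 9 in KO (11.7%), all of them higher. The additional chains were COL6A1, COL9A2 and COL9A3 in WT, and COL6A1, COL6A2, COL6A3, COL7A1, COL9A2, COL9A3 and COL18A1 in KO. Without the libraries numbered 1, the count was 4 in WT (COL1A1, COL6A1, COL9A2 and COL18A1), beside 11.4% of all genes then tested. It was 3 in KO (COL1A1, COL6A1 and COL11A2), beside 13.1%, and all were higher. Without overlap of libraries, 5 chains were higher and 1 was lower in WT, beside 11.3% and 10.4% of all tested genes. In KO these were 8 and 3 chains, beside 12.6% and 11.8%. The median log2 fold change of the tested chains was 0.30 in WT and 0.80 in KO, beside 0.02 and 0.00 over all tested genes. Each genotype's treated and untreated libraries also enter the comparisons by genotype, so the 2 kinds of result are not independent.

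COL18A1 rose 2.51-fold in WT with butyrate, from 135, 159 and 223 to 482, 417 and 398 CPM (log2 fold change 1.33, SE 0.24, adjusted p = 0.0169). The treated libraries did not overlap the untreated ones, but the call was lost without WT untreated replicate 1 (adjusted p = 0.0888) or 2 (0.0899) or WT butyrate replicate 2 (0.0585). It held without the libraries numbered 1 (log2 fold change 1.08). In KO the COL18A1 change of 0.69 (SE 0.24) passed only with the block (adjusted p = 0.0343, and 0.128 without it). COL11A2 rose 4.52-fold in KO with butyrate, from 9.47, 5.56 and 11 to 38.7, 48.5 and 30.9 CPM (2.18, SE 0.54, adjusted p = 0.0467). Its groups did not overlap, yet leaving out any 1 of the 6 libraries ended the call, with an adjusted p of 0.0545 to 0.203. In WT COL11A2 went from 4.22, 9.18 and 21.0 to 8.86, 8.06 and 20.8 CPM (0.13, SE 0.52).

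The type VI and type IX chains were among those that passed with the block. COL6A1 went from 0, 32 and 33 to 113, 347 and 533 counts in WT (log2 fold change 3.83, adjusted p = 0.0724, and 0.0048 with the block). In KO it went from 1, 0 and 0 to 5, 43 and 45 counts, a ratio of 77.9 (95% counting interval 13.6 to 3110, adjusted p = 0.056, and 0.0105 with the block). Both COL6A1 comparisons passed without the libraries numbered 1 (adjusted p = 0.00171 in WT and 0.00108 in KO). In the fits of all 12 libraries COL6A1 passed the filter on low counts only through treated libraries. Its adjusted p with butyrate from those fits are therefore a description and not support for a change. COL6A3 in KO went from 0, 0 and 3 to 10, 23 and 12 counts, a ratio of 12.6 (95% counting interval 4.04 to 63.2), and COL6A3 libraries in WT overlapped (-0.17). COL9A2 had log2 fold changes of 2.13 in WT and 1.47 in KO (adjusted p = 0.0801 and 0.159, and 0.00587 and 0.0125 with the block). Without the libraries numbered 1 COL9A2 passed in WT (adjusted p = 0.0133) and stood at 0.0513 in KO. COL9A3 had changes of 1.64 and 1.57 (adjusted p = 0.214 and 0.19, and 0.04 and 0.0296 with the block). In KO the block also passed COL6A2 (2.03, blocked adjusted p = 0.0287), COL6A3 (0.0236) and COL7A1 (1.41, 0.0185). For COL6A1, COL9A2 and COL9A3, replicate 1 was the lowest treated library in both genotypes.

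Chains without a butyrate call included COL2A1, which in KO had 261, 303 and 330 CPM untreated and 243, 212 and 252 treated. Its treated libraries lay below the untreated ones without overlap, and the log2 change of -0.34 (SE 0.19, adjusted p = 0.36) did not pass. COL4A5 had changes of -0.05 and -0.19 (SE 0.33 each). COL25A1 changed by 1.75 (SE 0.58, adjusted p = 0.14) in WT and -0.26 (SE 0.47) in KO. COL16A1, which was not tested, had 0, 2 and 0 counts in WT untreated and 9, 34 and 7 in WT butyrate, a ratio of 23.5 (95% counting interval 6.18 to 199). COL16A1 in KO had 3, 0 and 0 counts untreated and 5, 40 and 0 treated, so that replicate 2 held most of the treated counts.

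**Figure D4:**
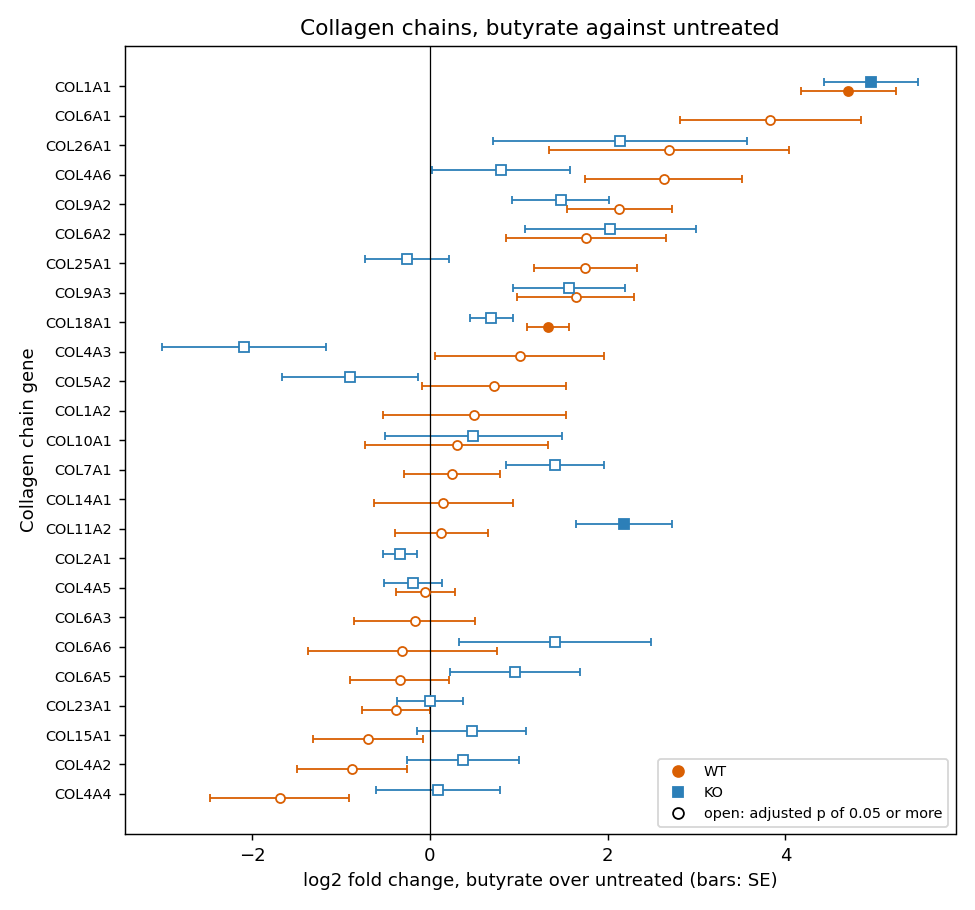
Log2 fold change of butyrate over untreated for each tested chain in WT and in KO cells, with standard errors; filled points have an adjusted p under 0.05, and pairs in which a group held 3 or fewer counts in all are left out. COL1A1 stands near 4.71 in WT and 4.96 in KO.

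The interaction of genotype and butyrate asks whether the response to butyrate differs between WT and KO. With edgeR 0 of 25 chains and 0 of 15805 genes passed (0.0% called), while 4 chains and 658 genes had an unadjusted p under 0.05. With the block 0 chains and 3 genes (0.019%) passed, and with DESeq2 0 chains and 86 genes. The 4 chains were COL11A2 (difference of log2 changes 2.04, SE 0.74, adjusted p = 0.959), COL25A1 (-2.01, SE 0.75), COL4A3 (-3.10, SE 1.32) and COL6A3, named after their values were seen. COL15A1, which went from 11.2, 42.5 and 29.4 to 6.22, 17.8 and 26.9 CPM in WT and from 11, 23.5 and 50.7 to 25.3, 40.4 and 52.3 in KO, had a difference of 1.17 (SE 0.87). In every same-numbered pair the treated library was lower in WT and higher in KO, but the interaction did not pass (adjusted p = 1.00, and 0.312 with the block).

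Genes that process collagen were counted from a list of 34, of which 27 were tested. In untreated cells 6 were higher and 3 lower in the KO (median log2 fold change 0.19), and under butyrate 6 were higher and 3 lower (median 0.39), beside 0.02 and 0.00 over all genes. Of all tested genes, 11.7% were higher and 10.9% lower in untreated and 10.1% and 8.89% in treated KO cells. With the block the list had 9 higher and 6 lower in untreated cells (33.0% of all genes in either direction) and 8 higher and 5 lower in treated cells (29.2%). PLOD2, which hydroxylates lysines of the collagen telopeptides, was at 1.03, 0.649 and 0.639 CPM in WT untreated and 150, 153 and 124 in KO untreated (log2 fold change 7.54, SE 0.46, adjusted p = 8.02e-07). Under butyrate PLOD2 was at 0.674, 0.0853 and 0.191 CPM in WT and 122, 86.5 and 84.8 in KO (8.36, SE 0.49, adjusted p = 7.54e-07). No KO library of PLOD2 was near any WT library. FKBP10, a chaperone that acts with PLOD2, rose by 2.99 and 3.55 (adjusted p = 3.94e-05 and 1.74e-05), from 5.58, 9.0 and 7.49 to 41.1, 53.3 and 81.5 CPM in untreated cells. P3H4, a partner of the lysyl hydroxylase complex, rose by 3.38 and 2.86 (adjusted p = 7.56e-05 and 0.000297). PCOLCE2, an enhancer of procollagen C-proteinase, rose by 5.17 and 5.46 (adjusted p = 2.33e-05 and 2.99e-05), while its relative PCOLCE fell by 1.28 and 1.53 (adjusted p = 0.0125 and 0.0051). These calls held when any 1 library was left out. PCOLCE2 entered the test only through KO libraries, so its adjusted p and their stability are not support for a difference.

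MIA2, which helps large cargo leave the endoplasmic reticulum, rose in both genotype comparisons (1.26 and 1.09, adjusted p = 0.00634 and 0.0171). LOXL3, a crosslinking oxidase, rose in untreated cells (1.49, adjusted p = 0.0363), and its relative LOXL2 rose under butyrate (3.44, adjusted p = 0.00136). PLOD3, another lysyl hydroxylase, fell by 0.83 and 0.69 (adjusted p = 0.0161 and 0.0436). The procollagen N-proteinases ADAMTS14 (-2.23, adjusted p = 0.0286, untreated) and ADAMTS3 (-0.94, adjusted p = 0.0342, treated) were lower. With the block LOXL2 also passed in untreated cells (1.37, adjusted p = 0.101 without the block and 0.0233 with it) and LOXL3 in treated cells (1.16, 0.101 and 0.0465). ADAMTS3 likewise passed in untreated cells (-0.76, 0.0716 and 0.00877) and ADAMTS14 in treated cells (-1.84, 0.0685 and 0.00602). The LOXL3 call was lost without any library but WT untreated replicate 2 (adjusted p up to 0.142), and the MIA2 call under butyrate without WT butyrate replicate 2 (0.0726) or KO butyrate replicate 1 (0.0612). PLOD3 was lost without WT untreated replicate 3 (0.0556) or KO untreated replicate 1 (0.0635), and under butyrate without any library but KO butyrate replicate 3 (up to 0.142). ADAMTS14 was lost without any library but KO untreated replicate 3 (up to 0.0837), and ADAMTS3 without any but WT butyrate replicate 3 or KO butyrate replicate 1 (up to 0.108). The MIA2 call in untreated cells and the LOXL2 call held. SERPINH1, the collagen chaperone HSP47, was at 179 ± 20.4 CPM in WT untreated and 210 ± 86.6 in KO untreated (SD, n = 3).

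With butyrate PCOLCE rose in both genotypes, from 20.4, 16.4 and 22.2 to 105, 117 and 77.0 CPM in WT (2.34, SE 0.33, adjusted p = 0.00571). In KO it went from 4.17, 8.22 and 11.7 to 27.4, 38.5 and 37.6 CPM (2.09, SE 0.33, adjusted p = 0.0078), a call lost only without KO untreated replicate 2 (0.0606). LOXL2, a crosslinking oxidase, rose in KO from 2.19, 1.62 and 4.78 to 11.2, 32.6 and 28.0 CPM (3.05, SE 0.57, adjusted p = 0.0173). That call was lost without KO untreated replicate 1 (0.0808) or 2 (0.1) or KO butyrate replicate 2 (0.0807). In WT LOXL2 had a change of 0.98 (adjusted p = 0.394). PCOLCE was the 1 gene of this list called in WT, beside 2.35% of all tested genes. PCOLCE and LOXL2 were the 2 called in KO, beside 3.4%, with none lower. With the block 3 were higher and 2 lower in KO, beside 11.7%, P4HA2 being the added higher gene and MIA2 and P4HA1 the lower ones.

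**Figure D5:**
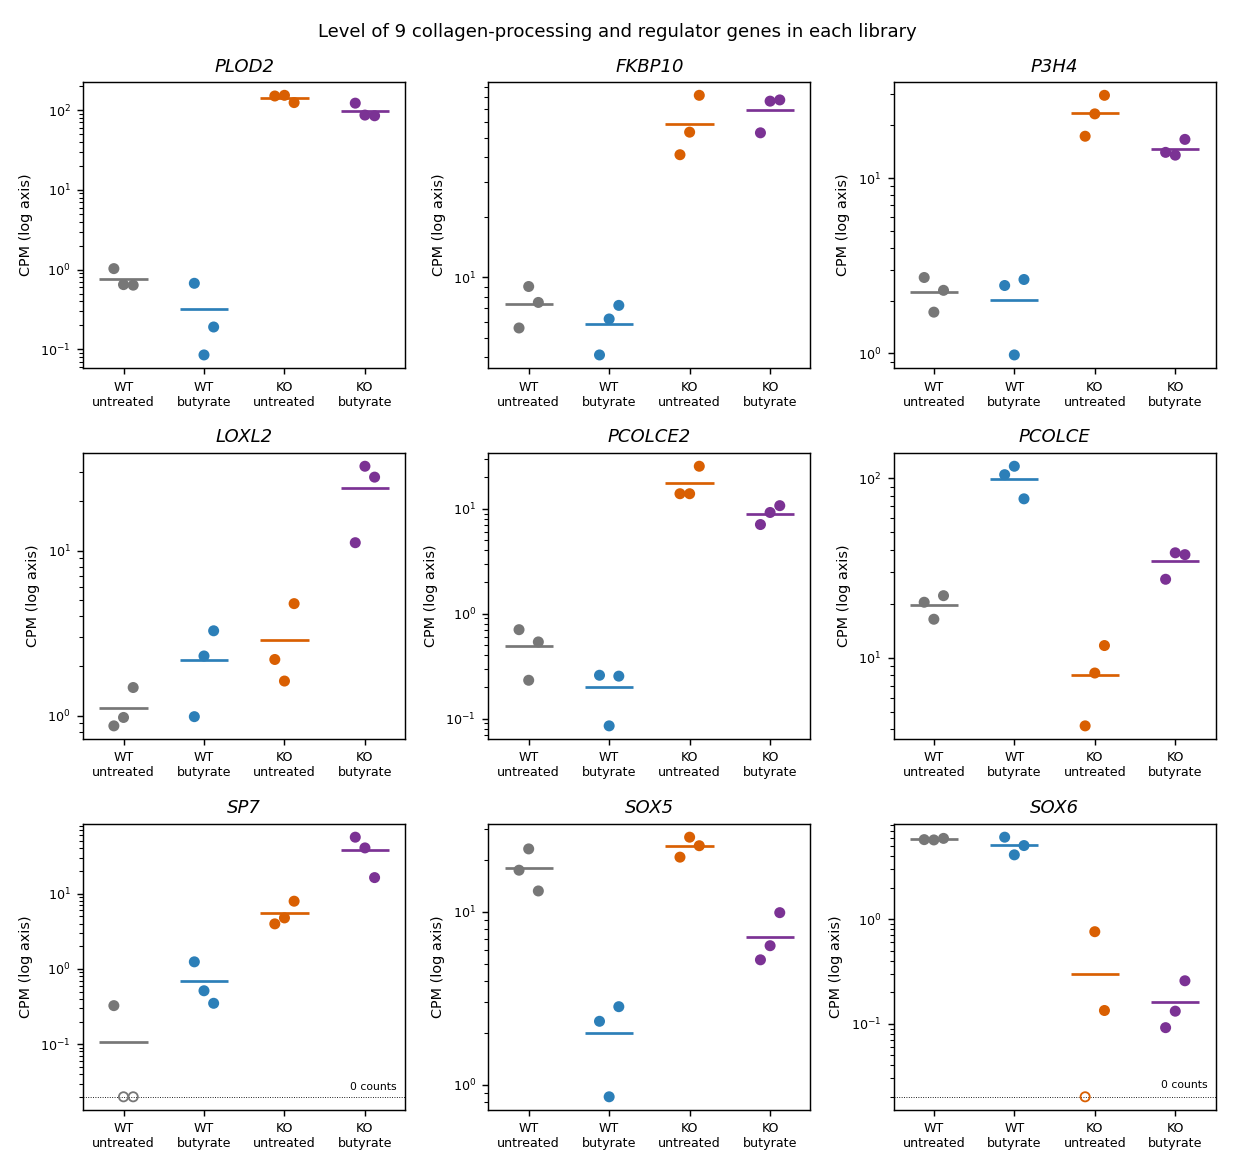
CPM of 9 genes that process collagen or regulate cartilage genes, in every library on a log axis, with a bar at each group mean; open circles are libraries with 0 counts. PLOD2 separates genotypes without overlap, SOX6 is lower and SP7 higher in the KO, and PCOLCE rises with butyrate.

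Of 12 regulators of cartilage and bone genes, 10 were tested. SOX9, the main activator of COL2A1 in cartilage, had 0 counts in every library of both genotypes. SOX6, which acts with SOX9, was at 5.79, 5.75 and 5.95 CPM in WT untreated and 0, 0.761 and 0.134 in KO untreated (-4.28, SE 0.86, adjusted p = 0.00328), and fell by 4.92 under butyrate (adjusted p = 0.00215). SP7, the osteoblast factor osterix, was at 0.325, 0 and 0 CPM in WT untreated and 3.96, 4.75 and 7.92 in KO untreated, and at 1.24, 0.512 and 0.349 in WT butyrate and 56.1, 40.4 and 16.3 in KO butyrate (5.77, SE 0.84, adjusted p = 0.000464). FOXC1 rose in the KO by 4.49 and 3.76 (adjusted p = 4.56e-05 and 0.000166) and NKX3-2 by 2.13 and 3.02 (adjusted p = 0.00284 and 0.000464). The FOXC1 and NKX3-2 calls held without any 1 library. SOX6 entered the test only through WT libraries and SP7 only through KO libraries. Their adjusted p by genotype are therefore a description and not support for a difference. Under butyrate SOX5 was higher in the KO (1.84, adjusted p = 0.00837) and TRPS1 lower (-1.38, adjusted p = 0.00353). SOX5 itself fell with butyrate, by 3.15 in WT (adjusted p = 0.00534) and by 1.73 in KO (adjusted p = 0.037), the latter lost when any 1 library was left out. In all, 3 regulators were higher and 1 lower in untreated KO cells, and 4 higher and 2 lower in treated KO cells, of 10 tested. Over all tested genes the shares were 11.7% higher and 10.9% lower, and 10.1% and 8.89%. With butyrate SP7 in KO had a change of 2.75 (adjusted p = 0.0545), which passed with the block (0.0186) and without the libraries numbered 1 (0.0206).

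Among 11 genes that degrade collagen or inhibit its degradation, 7 were tested. None was called higher in the KO, 2 were lower in untreated and 3 in treated cells. The shares of all tested genes were 11.7% higher and 10.9% lower in untreated, and 10.1% and 8.89% in treated cells. With the block 1 was higher and 3 lower in each, beside 33.0% and 29.2% of all tested genes in either direction. TIMP1, an inhibitor of matrix metalloproteinases, fell in the KO by 1.66 and 1.77 (adjusted p = 0.0113 and 0.00944), and in untreated cells without KO untreated replicate 1 the adjusted p was 0.0523. TIMP3 had 0 counts in all KO untreated libraries and was at least 24.6-fold higher in WT, and under butyrate the ratio of WT to KO was 178 (95% counting interval 60.4 to 865). TIMP4 was at 7.93, 1.83 and 2.7 CPM in WT butyrate and 0 in all KO butyrate libraries, at least 105-fold higher in WT. TIMP3 and TIMP4 entered the test only through WT libraries, and no p-value is given for them. TIMP2 stood in the other direction, 2.94 higher in untreated and 2.03 higher in treated KO cells (adjusted p = 0.093 and 0.101, and 0.00208 and 0.000849 with the block). TIMP2 rose with butyrate, from 0, 0.0464 and 0.101 to 1.14, 6.27 and 6.67 CPM in WT (adjusted p = 0.017, lost without WT untreated replicate 1, 2 or 3 or WT butyrate replicate 2, up to 0.0877). In KO it went from 0.107, 0.380 and 0.836 to 4.18, 29.8 and 23.7 CPM (5.37, SE 0.96, adjusted p = 0.0132, lost without KO untreated replicate 1 or 2 or KO butyrate replicate 2, up to 0.0916). MMP9, a gelatinase, rose in KO by 4.18 (adjusted p = 0.0278), lost without any library but KO butyrate replicate 1 (up to 0.134). The butyrate calls of PCOLCE, LOXL2, TIMP2, MMP9 and SOX5 also passed without the libraries numbered 1 (adjusted p up to 0.0398). TIMP2 and MMP9, however, passed the filter on low counts only through treated libraries. Their adjusted p with butyrate, and the stability of these, are a description and not support for a change.

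Of 13 collagen receptors, 8 were tested and 2 were called, both lower in untreated KO cells. In that comparison 22.6% of all tested genes were called, made up of 10.9% of all tested genes lower in the KO and 11.7% higher. The 2 receptors were the platelet receptor GP6 (-2.10, adjusted p = 0.0255, up to 0.111 without 1 library) and the integrin chain ITGA10 (-2.14, adjusted p = 0.0311, up to 0.146). GP6 was lost without WT untreated replicate 1 or KO untreated replicate 2 or 3, and ITGA10 without WT untreated replicate 3 or KO untreated replicate 1 or 2. With the block 4 receptors were higher with butyrate in KO (ADGRG1, GP6, ITGA10 and MRC2), beside 11.7% of all genes. In WT 1 was then higher with butyrate (ADGRG1) and 1 lower (GP6), beside 8.61%, and 1 was higher in treated KO cells (MRC2), beside 29.2%.

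Several markers of fibroblasts and chondrocytes were low or at 0. The chondrocyte markers MATN1 (15 to 89 counts) and CHAD (3 to 58 counts) were nevertheless detected in every group. So were 2 markers of megakaryocytes, the cells that make platelets. Of 10 fibroblast markers the summed level was 1.67 to 6.77 CPM in WT untreated, 9.0 to 16.6 in WT butyrate, 1.05 to 1.44 in KO untreated and 5.22 to 11.8 in KO butyrate. LUM, POSTN and FAP were at 0 in all 12 libraries. S100A4, the one fibroblast marker detected in all groups, was lower in untreated KO cells (-2.89, adjusted p = 0.00746). S100A4 rose with butyrate in KO (3.45, adjusted p = 0.0203), a call lost without KO untreated replicate 1 or 2 or KO butyrate replicate 2 (up to 0.115). Of 10 chondrocyte markers the sum was 2.18 to 2.92 CPM in WT untreated, 5.49 to 6.61 in WT butyrate, 1.66 to 3.26 in KO untreated and 4.91 to 10.2 in KO butyrate, with SOX9, HAPLN1 and EPYC at 0 in all libraries. ACAN, the main cartilage proteoglycan, was at 0 in all KO libraries, where COL2A1 was read. COMP, a cartilage matrix protein, had 0 counts in each KO untreated library and 2, 134 and 81 in KO butyrate (adjusted p = 0.0707, and 0.00288 with the block). COMP passed the filter on low counts only through treated libraries, so its adjusted p with butyrate are a description.

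Of 6 endothelial markers CDH5, KDR and EMCN were at 0 in all libraries. The sum was 6.96 to 11.9 CPM in WT untreated, 5.44 to 11.2 in WT butyrate, 0 to 1.44 in KO untreated and 3.17 to 3.57 in KO butyrate. PECAM1, an adhesion molecule of endothelium and platelets, made up most of it and was lower in untreated KO cells (-3.50, adjusted p = 0.00704), as 3 type VI chains were. Of 6 megakaryocyte markers the sum was 30.6 to 52.6 CPM in WT untreated, 101 to 211 in WT butyrate, 15 to 54.5 in KO untreated and 76.7 to 101 in KO butyrate, with PF4 at 0 in all libraries. ITGA2B, the platelet integrin chain, rose with butyrate by 1.91 in WT (adjusted p = 0.0463) and 2.25 in KO (0.023) and was lower in untreated KO cells (-1.60, adjusted p = 0.0212). The ITGA2B call in WT was lost when any 1 library was left out (up to 0.179). In KO it was lost without KO untreated replicate 1 or 2 or KO butyrate replicate 2 or 3 (up to 0.121), and by genotype without WT untreated replicate 3 or KO untreated replicate 1 or 2 (up to 0.0878). GP1BA, a chain of the platelet von Willebrand factor receptor, was higher in the KO by 3.30 and 2.64 (adjusted p = 0.000668 and 0.00298), calls that held without any 1 library. GP9, of the same receptor, was at 0 in all WT libraries and had 6, 1 and 10 counts in KO untreated and 54, 23 and 33 in KO butyrate. In both WT groups and in KO butyrate, S100A4 made up most of the fibroblast sum and ITGA2B most of the megakaryocyte sum. The fibroblast, chondrocyte and megakaryocyte sums moved with butyrate, as COL1A1 did, and PECAM1 and GP1BA with genotype, and their part in the collagen results was not tested.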

How the data were processed

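RNA was measured by bulk RNA-seq of total RNA. The values used are whole-number read counts per gene as deposited by the authors. FastQC 0.12.1, STAR 2.7.11b and the build hg38 are named in the submitters' processing notes; the counter, annotation, strand setting and filters are not given in the sources used here. No column lacked a sample (0), no row lacked a gene name and no libraries were identical.

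Counts of all genes were fitted together with edgeR 4.0.16 in R 4.3.3 (filterByExpr with a minimum count of 10, TMM scaling, quasi-likelihood test, 4 group means over all 12 libraries, Benjamini-Hochberg adjustment), which left 15805 of 28278 genes. Collagen rows were then read out. The method was tested on simulated data. Alternatives were the replicate number as a block, DESeq2 1.42.0 size factors and Wald test, library size alone, 2 other filters, fits of the compared groups only, and omission of each library or of those numbered 1. Same-numbered libraries deviated together (r = 0.147 to 0.595 over genes in every pair), and the numbers were taken to pair the libraries. Differently numbered libraries had r of -0.512 to 0.343, which in treated cells overlapped the same-numbered range of 0.315 to 0.595. The share of counts on the ribosomal RNA gene RNA28SN5 also differed by number. It was 2.3% to 5.63% in libraries numbered 1, 1.15% to 2.86% in those numbered 2 and 0.673% to 0.93% in those numbered 3. CPM are counts scaled by TMM-adjusted library size; lengths are from GENCODE v29, and positions and promoters from RefSeq GRCh38.p14 (32 of 44 chains matched a promoter window). Members and gene lists were chosen with earlier results of these data known. Chains called in any comparison, and COL2A1, were given with the value in every library of the groups compared.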

Additional observations from a re-analysis of the deposited data

How the results depend on the processing

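No called change reversed its direction under any alternative run. Counts here include COL2A1. In WT with butyrate the count of 2 became 5 with the replicate block, 6 with the DESeq2 Wald test, 1 with only the compared groups fitted, 4 without the libraries numbered 1, and 1 to 4 when a single library was left out. In KO with butyrate the count of 2 became 9 with the replicate block, 5 with the DESeq2 Wald test, 1 with library size alone, and 1 to 2 when a single library was left out. By genotype the count of 14 in untreated cells and 12 in treated cells became 4 and 3 when 10 counts were required in every library, a filter that leaves 9 chains to test and drops those absent from 1 genotype. With a single library left out these counts ran from 9 to 12 and from 8 to 12. With the block they were 16 and 17, and the block changed no printed call other than those named beside their results. COL1A2 in treated cells, described without a test, also passed with the block. The interaction stayed at 0 chains under each alternative run. Library size alone moved the median over all genes by 0.12 in KO with butyrate. With 1 or more counts required in every library the detected chains were 25, 27, 18 and 23 in WT untreated, WT butyrate, KO untreated and KO butyrate, and with 10 or more 12, 17, 16 and 17. Over 138 pairs of a gene and a comparison that were called or printed, 1626 values kept their side of the threshold, 146 fell short of it, 71 passed it and 28 changed sign. The sign changes were in 9 pairs, none of them called (adjusted p of 0.638 or more). By genotype in untreated cells the COL1A1 value of 0.01 became -0.009 with DESeq2 size factors, -0.020 with library size alone, -0.0097 with the DESeq2 Wald test, -0.0075 with 10 counts in every library and -0.040 without the libraries numbered 1. The COL15A1 value of 0.04 became -0.046 with the replicate block. With butyrate in WT the COL4A5 value of -0.05 became 0.0041 with library size alone, 0.0094 with 10 counts in every library and 0.080 without the libraries numbered 1. COL11A2 went from 0.13 to -0.080 without the libraries numbered 1 and COL6A3 from -0.17 to 0.086 with the replicate block. With a single library left out, butyrate in WT ran from -0.45 to 0.91 for COL11A2, -0.29 to 0.24 for COL4A5 and -0.65 to 0.83 for COL6A3. Genotype in untreated cells ran from -0.79 to 0.35 for COL11A2, -0.71 to 0.49 for COL15A1, -0.46 to 0.31 for COL1A1 and -0.24 to 0.48 for COL23A1. Genotype in treated cells ran from -0.27 to 0.53 for COL1A1 and -0.002 to 1.31 for COL6A6. Chains with few counts, such as COL1A2, COL4A6 and COL5A2, are limited by depth.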
